A study of Mus musculus with 3 samples.

Results

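The genes described here are 9 transcription factors of lymphatic specification and lymphatic valve formation: Prox1, Sox18, Nr2f2, Foxc2, Tbx1, Gata2, Maf, Hhex and Nfatc1. They were taken from the array by gene name, as a list of factors known for these roles, and every probe that carries such a name is shown. This gave 9 of the 28471 genes and 18 of the 41156 probes measured. The study sorted 3 stromal populations from the mesenteric lymph node, the node that drains the intestine, of wild-type C57BL/6NCrl mice. Lymphatic endothelial cells (LEC; gp38+ CD31+), which line the lymph sinuses, blood endothelial cells (BEC; gp38- CD31+), which line the vessels, and fibroblastic reticular cells (FRC; gp38+ CD31-), which build the fibre network, were each hybridised to 1 single-colour array. All 3 populations were CD45- and CD24-, and the labels give a mean sort purity of 88% ± 1.5 without saying how many mice or sorts went into an RNA.

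With 1 array a population there is no spread between replicates and no test of any difference below. A level is the log2 of a signal over the 75th percentile of its array, so 0 equals that percentile, and a fold is the ratio of the same probe between 2 arrays. Probes differ in how strongly they bind, so no level of 1 probe is set against that of another. The summed levels of marker lists below do add such levels, so bright probes weigh most in them. A probe counts as measured where the scanner software marks it as well above background, and a probe below that on the dimmer array gives only a lower bound ("at least"). The scanner software's own error was close to 0.14 on the log2 scale for bright spots, which puts an error of about 0.20 on a difference, and it covers the spot only. A higher signal in a sorted population can come from more cells of a type or from more RNA per cell, and these cannot be told apart here. The sort labels were checked by markers: all 8 FRC markers were more than 4-fold higher in FRC than in either endothelium, 7 of 10 blood endothelial markers in BEC over LEC, and 5 of 7 lymphatic markers in LEC over BEC. The 5 include Pdpn, whose product gp38 was part of the gate. Pecam1, which encodes CD31, had levels of 2.33 in LEC, 4.02 in BEC and -4.06 in FRC, and Pdpn, which encodes gp38, -1.19 in LEC, -3.81 in BEC and -0.83 in FRC. Cd24a, which encodes CD24, was well above background in all 3 populations although they were sorted as CD24-. Its levels were 3.40 in LEC, 3.89 in BEC and 1.61 in FRC.

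Lymphatic endothelium arises in the embryo from venous endothelium. Work in mice places Sox18, an HMG-box factor, and Nr2f2, the orphan nuclear receptor COUP-TFII, upstream of Prox1, the homeodomain factor that starts and then holds the lymphatic programme. Hhex, a homeobox factor of liver, blood and endothelium, also acts upstream of Prox1. Gata2, a zinc-finger factor shared with blood stem cells and mast cells, Foxc2, a forkhead factor, and Nfatc1, which calcineurin sends to the nucleus, act with Prox1 in forming valves. Tbx1, a T-box factor of the pharyngeal arches, is needed for lymphatic vessel growth in mice. Maf is a bZIP factor also used by T cells and macrophages.

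All 9 factors had a probe well above background in LEC and in BEC, and 8 of 9 in FRC, where Gata2 had none. By their brightest probes they fell into 3 orders. Prox1, Foxc2, Tbx1 and Nfatc1 were highest in LEC and lowest in FRC, as was Hhex, though its LEC and BEC levels lay within the error of the spots. Sox18 and Gata2 were highest in BEC and lowest in FRC. Maf was highest in LEC and lowest in BEC, and so was Nr2f2, though its BEC and FRC levels lay within that error. For each of the 6 genes with several probes, all its probes gave the same order of levels, these within-error pairs and values not well above background included. By the junction probe of Prox1, neither BEC nor FRC was well above background, so their order was not measured by it.

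**Figure D1:**
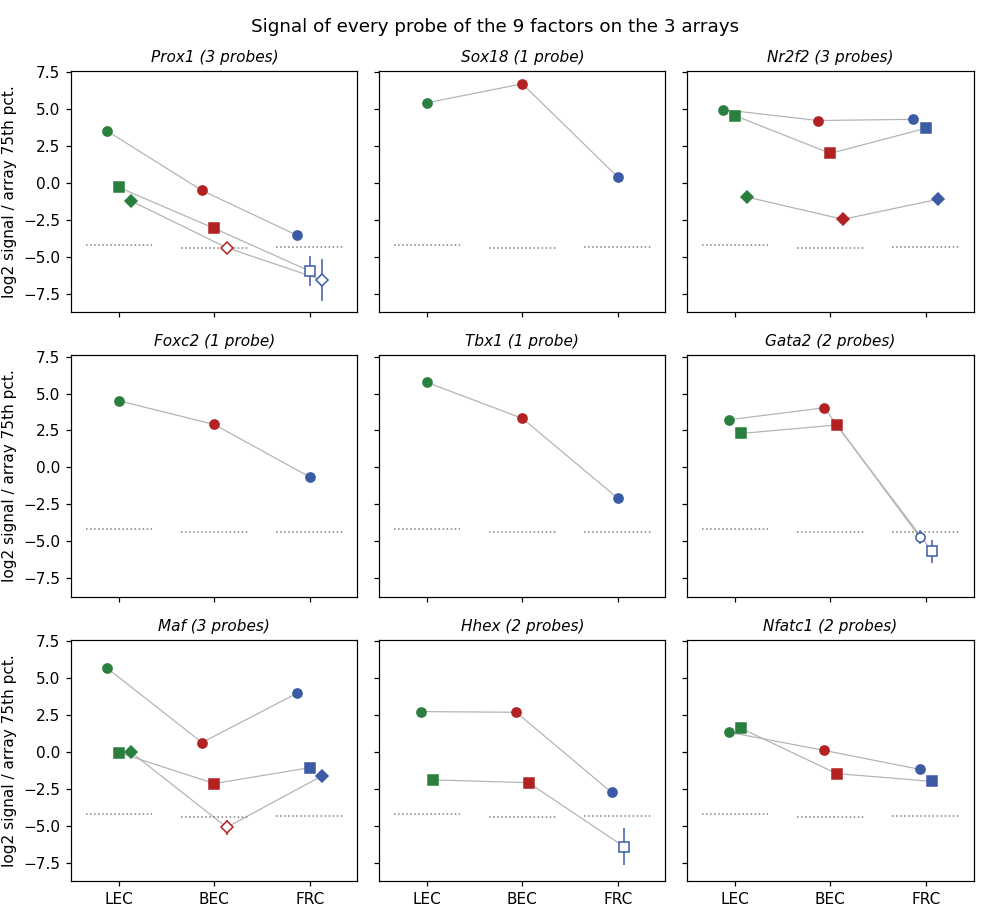
Log2 of signal over the array's 75th percentile (vertical axis) for every probe of the 9 factors in LEC, BEC and FRC; grey lines join the values of a probe, circles are the brightest probe and squares and diamonds the next, bars are the scanner software's error, open symbols are not well above background and dotted lines mark the lowest level well above background. Prox1 and Tbx1 step down from LEC to BEC to FRC, Gata2 and Sox18 are high in both endothelia, and Maf dips in BEC.

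The 3 Prox1 probes are shown by their first 30 of 60 bases, since they sit in different parts of the gene and differ in brightness and in the folds they give. On mouse build mm9, minus strand, the brightest lies at chr1:191942646-191942705, the middle one at chr1:191947038-191947097, and the dimmest spans a splice junction between 191977369 and 191984426. The position of probes in exons or untranslated parts was not annotated on that build here. The brightest probe is annotated to a cDNA clone and the others to a RefSeq transcript. RefSeq gives the gene a length of 52.8 kb.
Prox1, brightest probe: ggggggaataaagcagtttaaagttgtata
Prox1, middle probe: gattgcaacgctcttttgaatgtatggata
Prox1, junction probe: acatctcaccttattcaggaagcgcaatgc

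Prox1 had levels of 3.53 in LEC, -0.51 in BEC and -3.56 in FRC by its brightest probe, with software errors of 0.14 in LEC, 0.15 in BEC and 0.23 in FRC. LEC was highest and FRC lowest, and both steps were larger than the errors. The LEC signal was 137-fold that of FRC and 16.5-fold that of BEC, and the BEC signal was 8.27-fold that of FRC. With the normexp alternative (background correction, an offset of 50 and quantile normalization), LEC minus FRC was 5.42 in place of 7.09 on the log2 scale. BEC minus FRC was 1.70 in place of 3.05, short of 4-fold. The middle probe had -0.31 in LEC, -3.08 in BEC and -5.97 in FRC, and the junction probe -1.24 in LEC, -4.39 in BEC and -6.57 in FRC. Neither was well above background in FRC, nor the junction probe in BEC, so both gave bounds: LEC exceeded FRC at least 16.3-fold by the middle probe and at least 8.59-fold by the junction probe. LEC exceeded BEC 6.82-fold by the middle probe, and at least 8.83-fold by the junction probe. All 3 probes therefore put LEC above BEC by more than 4-fold, and the 2 measured on both arrays differed from each other by 1.28 ± 0.32 on the log2 scale.

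Prox1 was not absent from the other sorts by its brightest probe, the one on a cDNA clone. In FRC it was well above background by that probe alone, and in BEC also by the middle probe. By the brightest probe its BEC signal was 6.06% of the LEC signal and its FRC signal 0.73%. Of 7 lymphatic markers, BEC signals ran from 6.49% of the LEC signal for Stab2, a hyaluronan scavenger receptor, to 140% for Nrp2, with a median of 14.6%. The Prox1 share lay below all 7 when each gene was read by its brightest probe. By the middle Prox1 probe the share was 14.7%, so this place depends on the probe. Lyve1, the hyaluronan receptor of lymphatic endothelium, was at 7.27% by its brightest probe, and its other probe put LEC minus BEC at 6.53 on the log2 scale, against 3.78 by the brightest. Reln, secreted by lymphatic vessels, was at 7.18%. In FRC the 7 ranged from 0.45% for Lyve1 to 128% for Pdpn, part of the FRC gate, with a median of 0.96%. The summed level of these 7, as a multiple of the 75th percentile, was 253 in LEC, 48.3 in BEC and 6.49 in FRC, and Flt4 and Reln were not well above background in FRC. The part of LEC carried into another sort in the Prox1 signal there was not tested.

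Tbx1, with 1 probe (chr16:18581816-18581875, mm9), had levels of 5.75 in LEC, 3.32 in BEC and -2.08 in FRC. It had the order of Prox1, with BEC nearer to LEC than to FRC. The LEC signal was 229-fold that of FRC, and only 2 of the 18565 genes compared ranked above Tbx1 by LEC minus FRC. Genes known only by a lower bound were ranked at that bound, so more of them may have a larger difference. BEC exceeded FRC 42.3-fold, and LEC exceeded BEC 5.41-fold. With normexp LEC minus FRC was 7.14 in place of 7.84, and BEC minus FRC 4.56 in place of 5.40, on the log2 scale. Its BEC signal was 18.5% of that in LEC, above the share of Stab2, Lyve1, Reln, Pdpn and Mmrn1 but below that of Flt4 and Nrp2 among the 7 markers.

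Foxc2, with 1 probe (chr8:123642693-123642752, mm9), had levels of 4.51 in LEC, 2.90 in BEC and -0.65 in FRC. The forkhead factor was thus well measured in all 3 populations, with BEC closer to LEC than to FRC. LEC exceeded FRC 35.7-fold, BEC exceeded FRC 11.7-fold and LEC exceeded BEC 3.04-fold. The difference between the endothelia, 1.60 ± 0.20, was 7.85 times its within-array error but short of 4-fold.

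Nfatc1 was read by 2 probes on transcript variants that the files name variant 2 and variant 1. The variant 2 probe had levels of 1.34 in LEC, 0.11 in BEC and -1.17 in FRC, and the variant 1 probe 1.60 in LEC, -1.46 in BEC and -1.99 in FRC. Both probes thus put LEC highest and FRC lowest. LEC exceeded BEC 2.34-fold by the variant 2 probe and 8.33-fold by the variant 1 probe, a gap of 1.83 ± 0.29 on the log2 scale. LEC exceeded FRC 5.69-fold and 12.01-fold, and BEC exceeded FRC 2.43-fold and 1.44-fold. The mean of the probes put LEC minus BEC at 2.14, past 4-fold. RefSeq lists 6 transcripts for the gene, and the 2 probes lie 41.7 kb apart on mm9.

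Hhex did not differ between the endothelia beyond the error of the spots. Its brighter probe (chr19:37514969-37515028, mm9) had levels of 2.73 in LEC, 2.69 in BEC and -2.74 in FRC, and the dimmer one -1.89 in LEC, -2.08 in BEC and -6.41 in FRC, not well above background in FRC. LEC minus BEC was 0.04 ± 0.20 and 0.19 ± 0.22, so the order of the endothelia is not settled, and it turns to -0.015 with median scaling and to -0.20 with the spike-in slope taken out. Against FRC, LEC was 44.3-fold and BEC 43.0-fold higher by the brighter probe. On the log2 scale, the normexp alternative gave 4.34 in place of 5.47 for LEC and 4.16 in place of 5.43 for BEC. By the dimmer probe these were at least 5.47-fold and at least 4.79-fold.

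Sox18 and Gata2 were the factors with higher signals in BEC than in LEC. Sox18 (1 probe, chr2:181404789-181404848, mm9) had levels of 5.42 in LEC, 6.70 in BEC and 0.39 in FRC. BEC exceeded FRC 79.1-fold and LEC exceeded FRC 32.7-fold, and LEC minus BEC was -1.28 ± 0.20, a BEC signal 2.42-fold that of LEC. Gata2 had levels of 3.23 in LEC, 4.04 in BEC and -4.71 in FRC by its brighter probe (chr6:88156835-88156894, mm9), and 2.30 in LEC, 2.87 in BEC and -5.67 in FRC by the other. FRC was below the mark of well above background by both, so LEC was at least 189-fold and BEC at least 332-fold higher by the brighter probe, and at least 99.5-fold and 148-fold by the other. LEC minus BEC was -0.81 ± 0.20 and -0.57 ± 0.20. With the normexp alternative the bounds of the brighter probe were 5.30 in place of 7.56 for LEC minus FRC and 5.91 in place of 8.37 for BEC minus FRC, on the log2 scale.

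The LEC signal was 41.3% of the BEC signal for Sox18 and 57.0% for Gata2. Of 10 blood endothelial markers, LEC signals ran from 3.45% of the BEC signal for Rgcc to 35.3% for Plvap, which encodes the diaphragm protein of fenestrae, with a median of 9.82%. The part of BEC in the LEC signals of Sox18 and Gata2 was not tested. Gata2 is also a mast cell gene, and the mast cell markers Cpa3 and Fcer1a had levels of -4.20 and -3.71 in LEC, -2.38 and -2.89 in BEC, and -6.58 and -3.78 in FRC. The summed level of 12 leukocyte markers was 12.4 in LEC, 8.66 in BEC and 7.56 in FRC, with Lyz2, at a log2 level of 3.23 in LEC, 2.09 in BEC and 2.43 in FRC, the largest term. Of the 11 that could be compared, none passed 4-fold for LEC over BEC and 2 did for BEC over LEC, Cd79a (4.95-fold) and Cd3g (4.20-fold), with a median LEC minus BEC of -0.79. Of all genes, 3.39% passed for LEC and 3.40% for BEC. By its brightest probe Ptprc, which encodes CD45, was 3.50-fold higher in BEC than in LEC and 6.04-fold higher in BEC than in FRC. Its other probes were not well above background on any array. Of the 12 markers, Itgam was not well above background on any array, nor Adgre1 and Cpa3 in FRC. The part of leukocytes in the Gata2 and Maf signals was not tested.

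Maf was higher in LEC and in FRC, the populations sorted as gp38+, than in BEC. It carries 3 probes, shown because the size of its difference depends on them. The brightest and the dimmest lie 1.41 kb apart on mm9 (chr8:118227736-118227795 and chr8:118229204-118229263, minus strand). Another, on a cDNA clone, lies 20.5 kb away from the brightest, farther than the 3.64 kb that RefSeq gives the whole gene.
Maf, brightest probe: tgggtatgtgtagttcttgctataccatgg
Maf, cDNA clone probe: cctgaaaactgaggttggtatagcttatgg
Maf, dimmest probe: acaagggccaaagatctgagcagcatactt

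The brightest Maf probe had levels of 5.71 in LEC, 0.64 in BEC and 3.99 in FRC. The LEC and FRC levels were both far above BEC. LEC exceeded BEC 33.6-fold, and only 10 of 18377 genes ranked above Maf by LEC minus BEC, with lower bounds ranked at their bound. FRC exceeded BEC 10.2-fold, and LEC exceeded FRC 3.30-fold. With the spike-in slope taken out, LEC minus FRC was 0.83 in place of 1.72 on the log2 scale. The dimmest probe had -0.03 in LEC, -5.10 in BEC and -1.61 in FRC, with BEC not well above background, and put LEC at least 20.3-fold and FRC at least 6.80-fold above BEC. The cDNA clone probe had -0.04 in LEC, -2.13 in BEC and -1.06 in FRC and gave smaller folds, 4.27 for LEC over BEC and 2.10 for FRC over BEC. The 2 probes measured on both endothelial arrays were 2.98 ± 0.30 apart in LEC minus BEC. FRC markers in LEC (8 genes) had 1.56% to 8.51% of their FRC signal, with a summed level of 160 in LEC, 44.7 in BEC and 2632 in FRC. The part of FRC in the LEC signal of Maf was not tested.

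Nr2f2 was the factor with the least difference between populations by its brightest probe. It has 3 probes in a gene of 14.8 kb in RefSeq. The brightest and the next lie 1.01 kb apart on mm9 chromosome 7, minus strand, and are shown because they give different folds.
Nr2f2, brightest probe (chr7:77498375-77498434): tgtatactgtaaaagttataataactgaac
Nr2f2, probe of cDNA ARP-1 (chr7:77499447-77499506): aagaaaaaggcaaaagactggtttgtttgc

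The brightest Nr2f2 probe had levels of 4.96 in LEC, 4.22 in BEC and 4.30 in FRC. BEC and FRC did not differ beyond the error of the spots (BEC minus FRC -0.08 ± 0.20), and LEC exceeded BEC 1.67-fold and FRC 1.58-fold. With the spike-in slope of each array taken out, LEC minus FRC turned to -0.30. The ARP-1 probe had 4.54 in LEC, 1.996 in BEC and 3.69 in FRC, so by it LEC exceeded BEC 5.85-fold and FRC exceeded BEC 3.24-fold. The dimmest probe had -0.97 in LEC, -2.47 in BEC and -1.11 in FRC, and by it LEC exceeded BEC 2.82-fold. All 3 probes put BEC lowest, but the LEC minus BEC difference ran from 0.74 to 2.55 over them, a gap of 1.80 ± 0.29. No spot was saturated on any array.

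**Figure D2:**
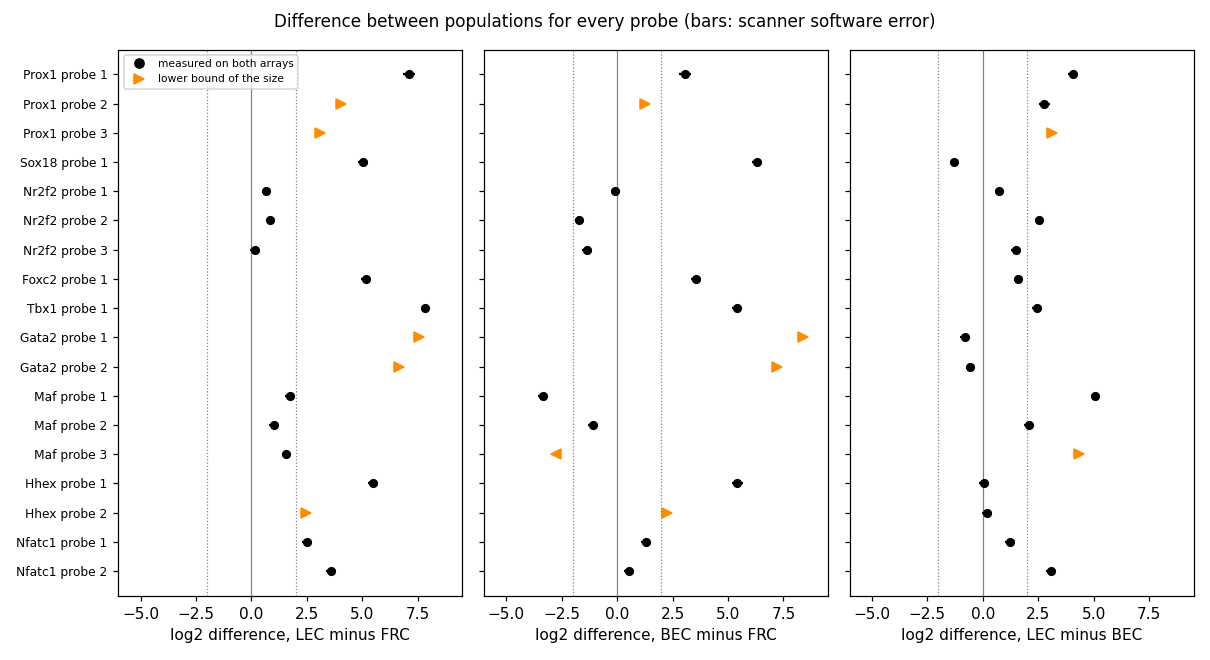
Log2 differences between populations (horizontal axes, 1 panel a comparison) for each of the 18 probes, in rows with the brightest probe of a gene first; black circles were measured on both arrays, with bars for the scanner software's error, orange triangles are lower bounds that point away from 0, and dotted lines mark 4-fold. In BEC minus FRC only Maf lies past 4-fold on the left, and Nr2f2, Maf and Nfatc1 show the widest gaps between probes in LEC minus BEC.

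Set against all genes, 7 of the 9 factors had LEC above FRC by 4-fold or more, and none had FRC above LEC by as much. Across the 18565 genes compared, 4.87% passed 4-fold on the LEC side and 5.92% on the FRC side. The median difference of the 9 was 5.16, against 0.03 for all genes, and the remaining 2 were Maf (1.72) and Nr2f2 (0.66). In BEC against FRC, 6 factors passed 4-fold on the BEC side and 1, Maf, on the FRC side, against 6.56% and 7.55% of 18997 genes. The median of the 9 there was 3.55, against 0.09, and Nfatc1 (1.28) and Nr2f2 (-0.08) lay between the thresholds. The comparisons of LEC and of BEC with FRC share the FRC array.

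Between the endothelia, 3 factors, Prox1, Tbx1 and Maf, passed 4-fold on the LEC side, and none on the BEC side. Across 18377 genes the shares were 3.39% and 3.40%. The median of the 9 was 1.23, against -0.07 for all genes. Of the other 6, Foxc2, Nfatc1, Nr2f2 and Hhex had higher values in LEC and Gata2 and Sox18 in BEC. At 2-fold, Foxc2 and Nfatc1 joined the LEC side and Sox18 the BEC side.

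**Figure D3:**
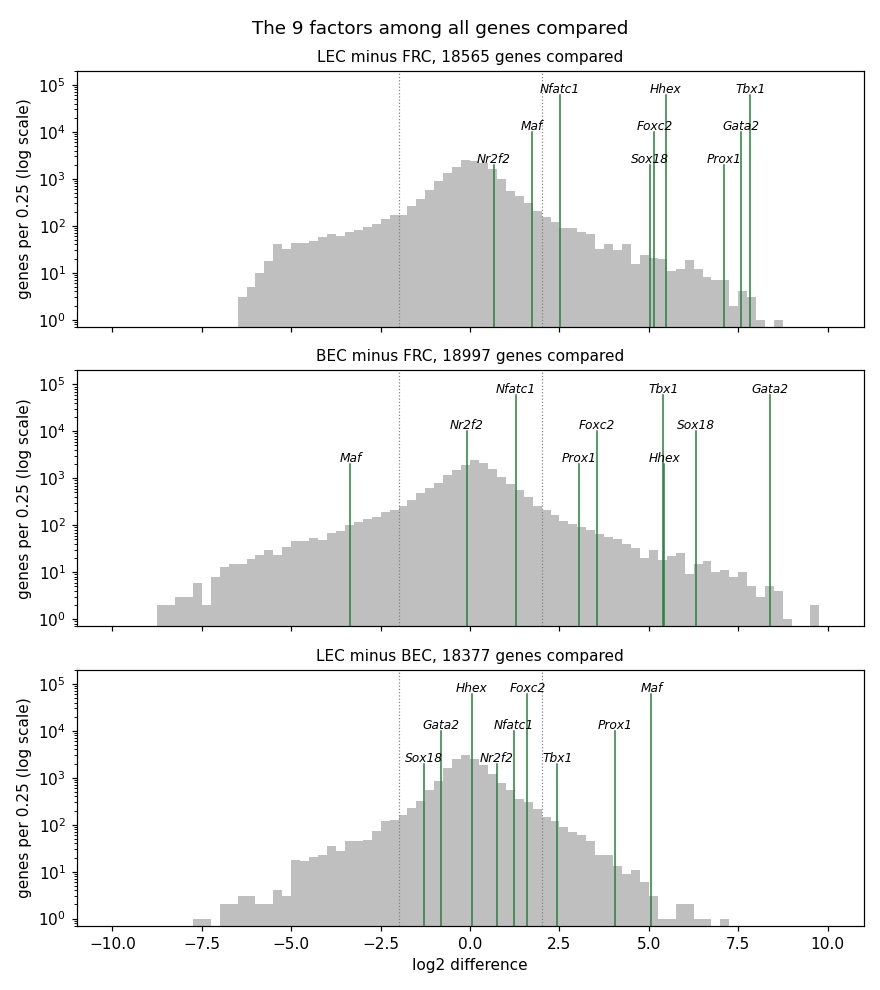
Histograms of the log2 difference of all genes compared (grey; vertical axis, genes per 0.25, log scale) for the 3 comparisons (panel titles); green lines mark the 9 factors by their brightest probe, their heights are set for the labels only, and dotted lines mark 4-fold. Prox1, Tbx1 and Gata2 lie at the right edge in LEC minus FRC, Gata2 and Sox18 lead the factors in BEC minus FRC, and Maf and Prox1 lead in LEC minus BEC.

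Relatives from the families of the factors were read in the same way. Of 24 on the array, 20 could be compared in LEC against FRC, with 3 past 4-fold for LEC and none for FRC (median 0.55). In BEC against FRC 5 of 20 passed for BEC and 2 for FRC (median 0.36), and in LEC against BEC 1 of 19 passed for LEC and 2 for BEC (median 0.04). Of all genes, 4.87% passed for LEC and 5.92% for FRC in LEC against FRC. The shares were 6.56% and 7.55% in BEC against FRC, and 3.39% and 3.40% in LEC against BEC. The Sox18 relatives Sox7 and Sox17, factors of blood vessel and arterial endothelium, were also higher in both endothelia. Sox17 had levels of -0.14 in LEC, 4.84 in BEC and -3.47 in FRC, a 31.6-fold BEC excess over LEC where Sox18 had 2.42-fold. Sox7 had 2.90 in LEC, 4.49 in BEC and -1.83 in FRC by its brightest probe, and by it lay between them at 3.00-fold. Its other probe put LEC minus BEC at -0.24 on the log2 scale, a smaller BEC excess than that of Sox18.

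Foxc1, the close relative of Foxc2 with shared roles in vessels, had 1.96 in LEC, 1.69 in BEC and -0.98 in FRC. It was 7.65-fold higher in LEC and 6.34-fold in BEC than in FRC, and LEC exceeded BEC 1.21-fold against 3.04-fold for Foxc2. Among T-box genes, Tbx3 ran opposite to Tbx1 between the endothelia, with -0.18 in LEC, 3.22 in BEC and -0.36 in FRC, a 10.5-fold BEC excess. Prox2 was nearly level, at -1.58 in LEC, -1.62 in BEC and -1.49 in FRC. Nr2f1, the near relative of Nr2f2, was well above background in FRC alone, at -2.33, and at least 3.65-fold lower in LEC and at least 4.13-fold lower in BEC.

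Gata6 had the shape of Maf rather than that of Gata2. Its levels were 4.89 in LEC, 1.50 in BEC and 4.61 in FRC, with LEC 10.5-fold above BEC, and a further probe well above background on all arrays put LEC minus BEC at 2.93. Gata3 and Gata4 were between -3.23 and -2.63 wherever they were well above background. None of the small Maf genes (Maff, Mafg and Mafk) reached 4-fold between the endothelia: Mafg had 1.67 in LEC, 0.11 in BEC and 0.96 in FRC. Of the NFAT genes, Nfatc3 had 2.44 in LEC, 0.89 in BEC and 2.51 in FRC, and Nfatc2 stayed between -2.81 and -2.42. Tbx5, Tbx20, Gata5 and Mafa were not well above background in any population.

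**Figure D4:**
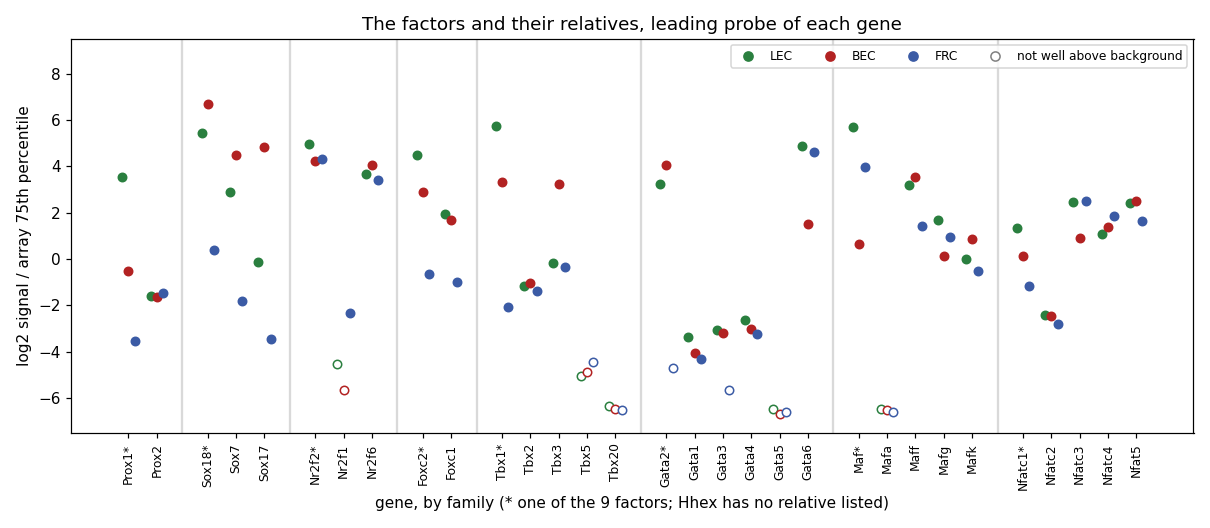
Log2 of signal over the array's 75th percentile (vertical axis) for the factors (asterisk) and most of their relatives, by family, with LEC, BEC and FRC from left to right for each gene; open circles were not well above background, and levels compare populations within a gene, not genes. Sox7 and Sox17 are lowest in FRC, as Sox18 is, Tbx3 is high in BEC alone, and Gata6 dips in BEC as Maf does.

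Genes known to lie downstream of the factors, or to mark the lymphatic programme, split between the populations. Of 15 such identity genes, 10 passed 4-fold for LEC over FRC and 1 for FRC over LEC (median 3.12). Of all genes, 4.87% and 5.92% did. For BEC against FRC it was 9 and 1 (median 2.52), beside 6.56% and 7.55%. For LEC against BEC it was 6 and 1 (median 0.59), beside 3.39% and 3.40%. The 6 were Lyve1 (13.8-fold), Stab2 (15.4-fold), Reln (13.9-fold), Mmrn1, a secreted multimerin (6.87-fold), Itga9, the integrin chain of lymphatic valves (6.47-fold), and Pdpn (6.15-fold), whose product gp38 set the gate between LEC and BEC, so that its difference was fixed by the sort. All of the 6 but Itga9 were also among the lymphatic markers that checked the sort labels, so their count is not independent of that check. Ccl21a was the 1 higher in BEC, by 6.97-fold, with levels of 6.02 in LEC, 8.82 in BEC and 8.66 in FRC. Flt4, the VEGF-C receptor gene that in mice maintains Prox1 and is maintained by it, had -0.66 in LEC, -1.24 in BEC and -4.40 in FRC, where it was not well above background, so that LEC exceeded BEC 1.50-fold. Nrp2, its coreceptor and a gene that Nr2f2 acts on, had 4.23 in LEC, 4.71 in BEC and 2.20 in FRC, and Angpt2, downstream of Foxc2, 3.05 in LEC, 3.31 in BEC and -0.08 in FRC. Cpt1a, the fatty acid oxidation gene downstream of Prox1, lay at 2.65 in LEC, 2.89 in BEC and 2.73 in FRC.

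Valve genes other than the factors were also divided. Of 16, 9 passed 4-fold for LEC over FRC and 1 for FRC over LEC (median 2.09), beside 4.87% and 5.92% of all genes. For BEC against FRC it was 7 and 1 (median 1.85), beside 6.56% and 7.55%. For LEC against BEC it was 4 and 1 (median 0.11), beside 3.39% and 3.40%. Among the 4 were Sema3a, a guidance ligand (8.83-fold), Itga9, and Cldn11, a tight junction claudin (5.57-fold). Nrp1, a Sema3a receptor gene, was 11.5-fold higher in BEC than in LEC. Gja4, which encodes connexin 37 and lies downstream of Prox1 and Foxc2 in valves, had 5.74 in LEC, 5.43 in BEC and 3.77 in FRC. Celsr1, a planar polarity cadherin of valve cells, had 4.81 in LEC, 3.51 in BEC and 0.31 in FRC.

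Cofactors and upstream regulators were the list closest to the median of all genes in LEC against FRC (0.04, with 4 of 17 past 4-fold for LEC and 3 for FRC). Of all genes, 4.87% and 5.92% passed there. In BEC against FRC the counts were again 4 and 3 (median 0.68), beside 6.56% and 7.55%. In LEC against BEC they were 1 and 1 of 16 (median 0.12), beside 3.39% and 3.40%. The receptor gene Kdr was 79.9-fold and Rasip1, which vessels need for a lumen, 78.6-fold higher in LEC, both against FRC. The growth factor and its processing machinery lay on the FRC side: Vegfc, the Flt4 ligand, had 0.24 in LEC, 2.93 in BEC and 4.21 in FRC. Ccbe1, needed to activate VEGF-C, had -2.59 in LEC, -5.62 in BEC and 2.23 in FRC, with BEC not well above background. Adamts3, the VEGF-C protease gene, was well above background in FRC alone, at -0.49 by its brightest probe, and by it at least 13.1-fold lower in LEC and 14.8-fold lower in BEC. Its other probes were not well above background on any array. Zfpm2, a GATA cofactor, was 4.04-fold higher in LEC than in BEC, and the calcineurin subunits that act on Nfatc1 differed by less than 4-fold in every comparison by their brightest probes, with Ppp3ca at 5.27 in LEC, 4.74 in BEC and 4.03 in FRC.

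Other endothelial transcription factors were mostly higher in the endothelia than in FRC. Of 20 compared, 8 passed 4-fold for LEC over FRC and 1 for FRC over LEC (median 1.61), beside 4.87% and 5.92% of all genes. For BEC against FRC it was 12 and 0 (median 2.91), beside 6.56% and 7.55%. For LEC against BEC it was 0 and 1 (median -0.55), beside 3.39% and 3.40%. The 1 gene for BEC was Hey1, a Notch target of arteries, at 1.19 in LEC, 4.60 in BEC and 0.98 in FRC. Lyl1, a bHLH factor, had the highest LEC minus BEC value of the list at 1.75, with levels of 4.33 in LEC, 2.57 in BEC and -2.23 in FRC. Tal1, its relative, had 3.33 in LEC, 4.54 in BEC and -1.82 in FRC. Etv2 was not well above background in any population.

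**Figure D5:**
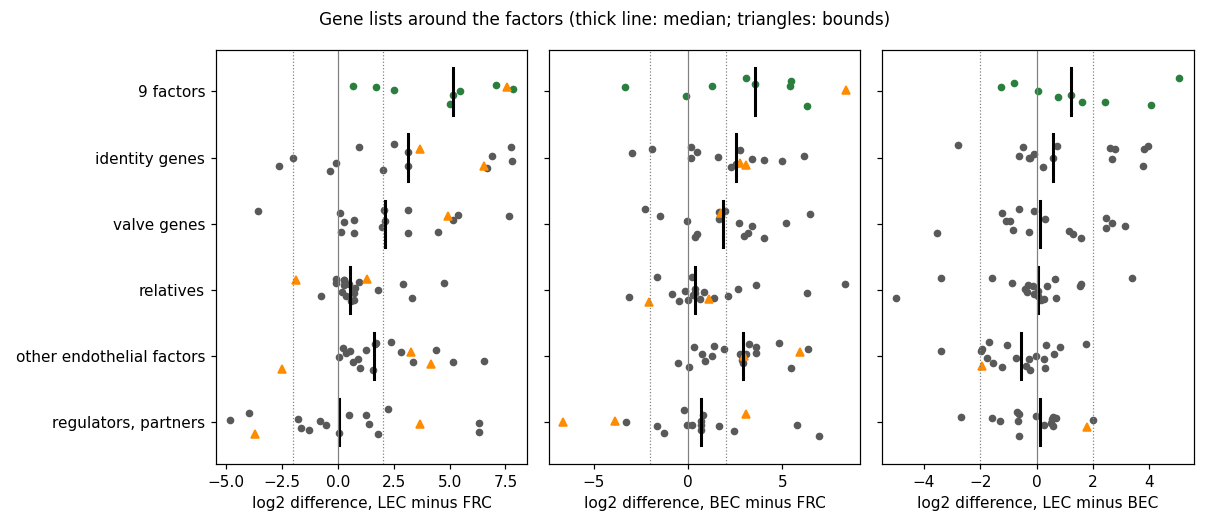
Log2 differences (horizontal axes) for the genes of 6 lists in the 3 comparisons, with the 9 factors in green, other genes in grey, genes given as bounds as orange triangles, and a thick line at each median; dotted lines mark 4-fold and the vertical scatter has no meaning. The median of the 9 factors is 5.16 for LEC minus FRC and 1.23 for LEC minus BEC, and that of the other endothelial factors 1.61 and -0.55.

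Genes with the shape of a factor over the 3 arrays were found by the root mean square difference of log2 levels. Each gene was centred on its own mean. Candidates were 13183 genes with a probe well above background on each array (464 for Gata2, with no such probe in FRC). The brightest probe was matched even where it was not so marked, as for Tub at -5.56 in FRC. For Gata2, FRC values under the lowest level so marked were set at that level. With 3 arrays such a match is a description only. Stab2 (0.17), Marco, a scavenger receptor (0.20), and Cpe, a carboxypeptidase (0.35), were nearest to Prox1. Cldn11 (0.09) and Tub (0.18) were nearest to Tbx1, and Dnah8 (0.02) and Otos (0.12) to Foxc2. Tal1 (0.05) and Rasgrp3 (0.11) were nearest to Sox18, Adgrf5 (0.30) and Ppp1r16b (0.46) to Gata2, and Tnfaip8l1 (0.08) and Epha2 (0.10) to Hhex. Cyp1b1 (0.20) and Tspan33 (0.21) were nearest to Maf, Smtnl2 (0.005) and Psap (0.01) to Nr2f2, and Ccnj (0.03) and Tanc2 (0.05) to Nfatc1.

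Promoter sequences of 5 of the factors were taken from a RefSeq-based table (Prox1, Gata2, Nr2f2, Tbx1 and Hhex, 8 start sites, build GRCm38.p6). They were searched on both strands, from 250 bases before to 50 after the start, for the letters AACAAT of SOX factors, AGATAA of the GATA family, GTAAACA of forkhead factors, AGGTCA of nuclear receptors, AGGTGT of T-box factors, GGAAAA of NFAT, TGCTGAC of large Maf factors and CCGGAA of ETS factors. No matches overlapped. In all, 10.7%, 11.2%, 3.65%, 16.3%, 13.7%, 23.4%, 4.67% and 14.9% of 32851 promoters hold them, in that order. Among the 8 windows there were 4 matches: NFAT letters at 1 place in the outer Prox1 window and at 2 places in the Nr2f2 window, and T-box letters in the outer Tbx1 window. The Gata2 and Hhex windows held none of these letters. The GC content was 64.3% and 57.3% for Prox1, 69.0% and 58.3% for Tbx1, 69.3% and 73.7% for Gata2 and 75.7% for Hhex, above the median of 52.7% over all promoters, and 49.7% for Nr2f2. The 250 bases before the outer start of Prox1 (chr1:190170828-190171077, minus strand) and of Tbx1 (chr16:18590672-18590921, minus strand) are printed because both factors had the order LEC, BEC, FRC and each holds a match, with the matched letters in capitals (NFAT in Prox1, on the opposite strand, and T-box in Tbx1).
Prox1: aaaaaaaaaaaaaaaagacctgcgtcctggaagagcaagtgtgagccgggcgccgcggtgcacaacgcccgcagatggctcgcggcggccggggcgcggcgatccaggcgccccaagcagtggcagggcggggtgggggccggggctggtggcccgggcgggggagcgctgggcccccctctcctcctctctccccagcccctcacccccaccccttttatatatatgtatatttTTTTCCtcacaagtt
Tbx1: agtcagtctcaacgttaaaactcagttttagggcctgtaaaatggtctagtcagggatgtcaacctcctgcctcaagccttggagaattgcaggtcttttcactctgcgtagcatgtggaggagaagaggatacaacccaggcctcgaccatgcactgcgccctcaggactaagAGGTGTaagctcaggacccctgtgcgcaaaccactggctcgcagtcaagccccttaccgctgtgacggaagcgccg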

How the data were processed

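RNA of 3 sorted populations (LEC, BEC and FRC) was measured on 1 array each, grouped by the sample titles. Deposited intensity values came from the scanner files. The submitters' processing notes name Agilent Feature Extraction 10.7.3.1. Values were corrected for background and spatial trend within each array, per the file headers, and the 3 arrays share 1 slide. Depth per array was 41156 probes, of which 59.7% in LEC, 60.1% in BEC and 60.5% in FRC were well above background. The deposited value table, also intensity, served as an alternative.

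Spots marked as outliers were dropped, spots of a probe averaged, and log2 of the intensity was taken minus the 75th percentile of its array (268 in LEC, 361 in BEC, 387 in FRC). A gene stood for its probe with the highest mean. Names were updated through RefSeq accessions (GRCm38.p6) for 26681 probes. Differences of at least 4-fold were counted over all genes with a probe well above background on either array. For the probes of the 9 factors, one not well above background was set at the higher of its own value and the lowest value so marked (-4.20 in LEC, -4.38 in BEC, -4.34 in FRC, log2). In comparisons over genes this was done only where no probe of the gene was so marked on that array. Elsewhere a dim brightest probe kept its own value. The number of arrays limits the precision. The median SD between spots of probes spotted 10 times was 0.05 to 0.06 (log2). The comparison step was tested on simulated data with planted shifts only. No simulated gene was a lower bound, so the handling of dim probes was not tested. Named genes were all 9 factors, the nearest 3 genes by shape for Prox1 and 2 for each other factor, the largest differences of each list, and genes tied to a factor. The members and lists were chosen with earlier results of these data known. Python 3.11.15, pandas 2.3.3, and limma 3.58.1 in R 4.3.3 (normexp, offset 50, then quantile normalization) were used. Some list genes and 1 probe sequence are not reported here.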

Additional observations from a re-analysis of the deposited data

How the results depend on the processing

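The 10 alternatives changed the scaling, background correction, source of values, response slope, filter, probe or threshold. No paired analysis was possible because each population has 1 array. Of 216 recomputed differences of single factors, 34 were identical to the reported value by construction, from the filter on dim probes or the mean over a single probe. Of the 182 others, 177 kept their direction and their side of 4-fold. Those that reversed were small: Nr2f2 in LEC minus FRC (-0.30 with the spike-in slope taken out, 0.66 as reported) and Hhex in LEC minus BEC (-0.015 with median scaling and -0.20 with the slope taken out, 0.04 as reported). Prox1 in BEC minus FRC fell short of 4-fold with normexp (1.70, against 3.05), and Nfatc1 in LEC minus BEC passed it with the mean of its probes (2.14, against 1.23). The cause was not tested. With a 2-fold threshold, 5 factors were higher in LEC than in BEC and 1 in BEC. The slope of signal on spike-in concentration was 1.00 in LEC, 0.92 in BEC and 0.82 in FRC, the last marked out of range by the scanner software. Prox1 in LEC minus FRC was 7.09, 7.86 with the slope taken out and 5.42 with normexp. Signals near background limit the Prox1, Gata2 and Hhex folds against FRC.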
